A study of Saccharomyces cerevisiae with 22 samples.

Results

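Wild-type yeast 45 min after a shift from 30 °C to 37 °C was profiled on 2 of the 22 arrays of a series of heat shock and cold shock time courses, and all 5315 genes that carry a name on the arrays are described. The samples were chosen by their labels, as the arrays of the heat shock course at 45 min. The cells were BY4742, a haploid laboratory strain of mating type alpha, grown in synthetic complete medium with 2% glucose at 30 °C, spun down and taken up in medium at 37 °C. RNA of the culture was labelled in Cy3 on array a and in Cy5 on array b, and hybridised together with a common reference, RNA of untreated BY4742 from a single large culture. Values are log2 ratios of the 45 min sample over this reference. The samples of 15, 30 and 60 min come from the same course, and a further sample of BY4742 grown at 37 °C, the starting point of the cold shock course, gives the level of cells grown at that temperature. It is called the 37 °C culture here.

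A rise in temperature unfolds proteins. Yeast answers through the transcription factor Hsf1, which drives the genes of chaperones, and through Msn2 and Msn4, which drive a broad set of general stress genes. Transcripts of genes for building ribosomes and for passing from G1 into S phase fall at the same time. At a mild temperature such as 37 °C cells resume growth, and most of these changes are transient.

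By the submitters' design text the 2 arrays of a condition are independent cultures with the dyes exchanged. The paper's methods speak of biological replicates each hybridised in dye-swap, so that the spread between array a and array b may be technical in part. The untreated culture of the course itself was not analysed here, and the effect of spinning down and new medium cannot be told apart from that of temperature. On the 45 min arrays the median intensity of gene spots was 357.5 and 526.7 in Cy5 and 380.5 and 304.3 in Cy3, against median backgrounds of 42.3 to 51.2. Between 96.3% and 97.6% of gene spots were well above background. Log2 ratios of the 2 arrays correlated at 0.97 across genes. Averaged over both channels of all 22 arrays, all 4 genes of mating type alpha were bright, with mean log2 intensities of 10.48 to 13.30. By the same mean the 7 genes of mating type a lay at 5.98 to 7.10. At 45 min 3 of the 4 alpha genes were lower than the reference. The 7 genes of mating type a were still scored as above background on both arrays of 45 min, as were 3 of the 4 genes deleted in BY4742. This score alone is thus no sign of a transcript.

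Compared with the common reference, 219 genes were higher at 45 min, which is 4.12% of the genes tested, and 97 were lower, which is 1.83%. A gene was called at a Benjamini-Hochberg adjusted p below 0.05 and a change of more than 1.7-fold, in a linear model of limma over all 22 arrays. At any size of change 3958 genes had an adjusted p below 0.05, so that the limit of 1.7-fold decided most calls. As the reference comes from a single culture, the p-values against it hold no spread between untreated cultures. Small heat shock proteins and chaperones led the genes that were higher, and a gene of the alpha pheromone and genes of S-adenosylmethionine and biotin synthesis led those that were lower. With the arrays scaled by their medians alone, without a curve for intensity, the same rule called 222 genes higher and 268 lower. The median of all genes was 0.01, and 0.19 when the arrays were scaled on external control spots.

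HSP26, which codes for a small heat shock protein that holds unfolded proteins, had log2 ratios of 4.80 on array a and 4.91 on array b. Its mean of 4.86 (SE 0.06, adjusted p = 1.98e-17) is 29.0-fold. HSP12, coding for a small membrane-associated stress protein, stood at 4.53 and 4.70, a 24.5-fold rise. Both genes gave nearly the same value with either dye, and both had the highest levels of all genes relative to the reference. SSA4, a stress-induced Hsp70, followed at 3.75 and 3.88, which is 14.1-fold. NQM1, related to the transaldolase of the pentose phosphate pathway, stood at 3.24 and 3.15. RTC3 stood at 2.89 and 2.91. These 3 genes were again alike on both arrays. TFS1, an inhibitor of the vacuolar carboxypeptidase Y, had a mean of 2.85. The disaggregase HSP104, the small heat shock protein HSP42 and HSP78, the mitochondrial relative of HSP104, lay close together at 2.81, 2.79 and 2.78. GPG1 completed the 10 largest rises at 2.55.

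Lowest of all genes was MF(ALPHA)2, which codes for a precursor of the alpha mating pheromone, with log2 ratios of -3.96 on array a and -3.75 on array b (SE 0.09, adjusted p = 9.25e-15). SAM2 and SAM1, the paired S-adenosylmethionine synthetases, had means of -2.69 and -2.52. Their close relatedness means that a probe of one may also read the other. SAM3, the permease for S-adenosylmethionine, stood at -2.11 and -2.10 on the arrays. MET17, which makes homocysteine from sulfide, stood at -1.93 and -1.89. BIO3 and BIO2, which act in biotin synthesis, had means of -2.60 and -1.90, and the transporters VHT1, for biotin, and BIO5, for its precursors, had means of -2.11 and -1.94. The signal of BIO5 reached only 245 on these arrays. Median backgrounds of 42.3 to 51.2 were not subtracted, so that its ratio is less certain. YHB1, a flavohaemoglobin that removes nitric oxide, stood at -2.12 and -2.10. All 20 genes lay well outside the difference between the arrays, which for the median gene was 0.058.

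**Figure D1:**
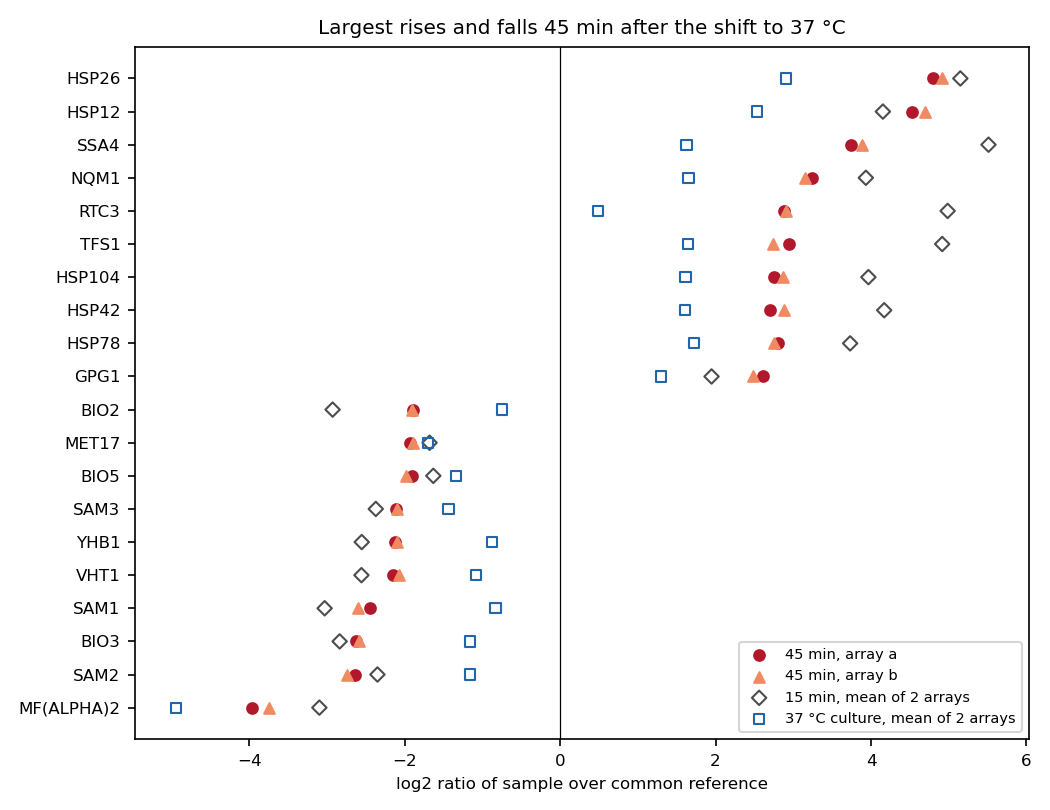
Log2 ratio of sample over common reference (x axis) for the 10 largest rises and 10 largest falls at 45 min, with filled circles and triangles for arrays a and b of 45 min, open diamonds for the mean of 15 min and open squares for the mean of the 37 °C culture. HSP26 lies at 4.80 and 4.91 and MF(ALPHA)2 at -3.96 and -3.75, and the arrays of 45 min nearly coincide for every gene.

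The members of this and the later groups were chosen with earlier results of these data known, so that their counts and medians are descriptions. Of 26 measured Hsf1 chaperone genes 18 were higher than the reference at 45 min, 0 were lower and 8 did not pass the test. Their median log2 ratio was 1.54, with 1.52 on array a and 1.55 on array b. Beside HSP26 and SSA4, the called members include SSE2, a nucleotide exchange factor of Hsp70, at 2.31, the mitochondrial chaperonin HSP60 at 2.09 and the co-chaperone STI1 at 2.08. The Hsp90 genes HSC82 and HSP82, whose sequences are near-identical, stood at 1.54 and 0.91. Among the members that did not pass were the co-chaperone YDJ1 at 0.70, SSA3 at 0.25 and APJ1 at -0.28. Of 34 general stress genes 27 were higher and 0 lower, with a median of 1.81. CTT1, the cytosolic catalase, stood at 1.80 on array a and 1.74 on array b, and TPS1, trehalose-phosphate synthase, at 1.24 and 1.47. RGI1, a gene of respiratory growth, was back at the level of the reference, with -0.01 and 0.18.

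Of 7 genes of trehalose metabolism 6 were higher, with a median of 1.35. They comprise both synthesis and breakdown, since TSL1, a subunit of the synthase complex, stood at 2.29 and the trehalase NTH1 at 1.45. Only 3 of 10 glycogen genes passed, GPH1, the glycogen phosphorylase, at 1.84 and GSY2, a glycogen synthase, at 1.29 among them, and the group median was 0.25. Of 10 genes of vacuolar proteases and their inhibitors 7 were higher, with a median of 1.09. TFS1 and PBI2, the inhibitor of proteinase B, at 1.42, had the highest values, so that the top 2 members were inhibitors and not proteases.

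Of 21 genes of the cell wall integrity pathway 9 were higher, with a median of 0.53. SPI1, a cell wall protein, stood at 2.48, SED1, a major wall glycoprotein, at 2.16, and SLT2, the kinase of the pathway, at 1.19. GSC2, the inducible subunit of glucan synthase, had 1.54 on array a and 1.49 on array b. In the endoplasmic reticulum, KAR2, the resident Hsp70, and ERO1, the thiol oxidase, stood at 1.80 and 1.65, and these were the 2 of 18 folding genes that passed. In the oxidant defence 4 of 25 genes were higher and 2 lower, among them TSA2, a peroxiredoxin, at 1.99 and GPX2, a glutathione peroxidase, at -1.48. None of 32 proteasome genes, 13 genes of the ubiquitin system and 23 autophagy genes passed, and their medians were 0.16, 0.25 and 0.29.

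Genes of carbon metabolism were divided. HXK1 and GLK1, which phosphorylate glucose, stood at 2.28 and 1.86, and 6 of 21 genes of glycolysis and fermentation were higher. Without a curve for intensity 3 genes of the group were higher and 3 lower, and with external control spots 3 were higher and 1 lower. The median of that group was 0.31, and it turned to -0.32 without a curve for intensity and to -0.18 with external control spots. PGK1, phosphoglycerate kinase, at 0.82, had 0.11 and 0.25 under these settings and was not called. ALD4 and ALD3, aldehyde dehydrogenases of the mitochondrion and the cytosol, stood at 2.47 each. CYC7, the stress form of cytochrome c, stood at 1.11, and COX5B, an isoform of a cytochrome oxidase subunit, at 1.24. They were the 2 of 37 respiratory genes that passed, a share near that of all genes. HXT5, a hexose transporter of slow growth, stood at 1.63, and HXT2, a high-affinity transporter, at -1.04. GCY1 and DAK1, of glycerol breakdown, stood at 1.68 and 1.49 and belong to the 4 of 12 glycerol genes that were higher.

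Of the groups that were low, biotin synthesis and uptake was called in all 5 measured genes, with a median of -1.94. Of 26 genes of methionine and sulfate assimilation 5 were lower, namely SAM2, SAM1, MET17, the methionine permease MUP1 at -1.60 and methionine synthase, MET6, at -1.58, and the median of the group was -0.38. Without a curve for intensity 9 of them were lower. Branched-chain amino acid synthesis had 5 lower members of 12, led by LEU1, isopropylmalate isomerase, at -1.16 and OAC1, a mitochondrial carrier, at -1.09, whereas BAT2, the cytosolic aminotransferase, was higher at 1.43. Of 21 genes of the iron regulon 7 were lower, among them FET3, the multicopper oxidase of iron uptake, and TIS11, which degrades mRNAs in iron shortage, both at -1.13. The signal of TIS11 reached only 222 on the 45 min arrays, so that its ratio is less certain. In arginine synthesis 3 of 8 genes were higher and 0 lower, with a median of 0.52. They include ARG3, ornithine carbamoyltransferase, at 1.80 and 1.67 on the arrays, and CPA1, of carbamoyl phosphate synthesis, at 1.45 and 1.3.

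Of 126 cytosolic ribosomal protein genes 18 were lower and 0 higher, and the median was -0.26. RPS21B stood at -1.28 and -1.09. RPS2 differed far more between the arrays, with -1.91 on array a and -0.47 on array b, as did RPL41B with -1.60 and -0.21 and RPL35A with -1.46 and -0.15. With a curve over the whole array RPL35A turned to 0.10. Under that curve RPS21B, RPS2 and RPL41B came to -0.20, -0.28 and -0.02 and lost their calls. The signal of RPS2 reached 35110 on these arrays, above the limit beyond which spots were left out of the curves, so that its ratio is less certain. Of 21 genes that differed by more than 0.5 between the arrays 13 were ribosomal protein genes, whose median log2 intensity was 13.7 against 8.4 for all genes. RPS2, RPL41B, RPL35A and RPS14B lay in the same print block, and the 13 genes were spread over 6 of 48 blocks. The brightest external control probe lay at 10.8. With a curve over the whole array in place of each print block 7 of these genes were lower, and 115 with external control spots and 123 without a curve, where the medians were -0.95 and -1.10. The part of intensity and of print block in these values was not tested. Of 51 translation factors and tRNA synthetases 2 were lower and 0 higher, with a median of -0.20, where 1.83% of all genes were lower. They were TEF4, an elongation factor, at -1.09 and ILS1, isoleucyl-tRNA synthetase, at -0.82. ILS1 stood at -0.60 with external control spots and -0.76 without a curve for intensity, and lost its call. The number of lower members was 6 and 9 under these 2 settings.

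Between 15 and 45 min many stress genes fell and many growth genes rose. All comparisons with other samples share the 2 arrays of 45 min. At 45 min 276 genes were higher than at 15 min, or 5.19%, and 223 were lower, or 4.2%. With external control spots these counts were 539 and 108, and the median difference of all genes was 0.25. RGI1 showed the largest fall between these times, from 3.57 and 3.44 on arrays a and b to -0.01 and 0.18, a difference of -3.42 (SE 0.10, adjusted p = 4.36e-13). HXK1 fell by 2.68 to 2.28, and CTT1 fell by 2.48 from 4.25 on both arrays. ALD3, STF2 and CYC7 fell by 2.55, 2.6 and 2.50. Of the 34 general stress genes 28 were lower than at 15 min and 0 higher, and the median difference was -1.72. Of the 26 Hsf1 chaperones 10 were lower and 1, CNS1, a co-chaperone of Hsp90, was higher, with a median difference of -0.59. Scaled on external control spots, 4 chaperones were lower than at 15 min, and CNS1 was not called without a curve for intensity or without array a of 45 min. HSP26 itself differed from 15 min by -0.29 and HSP12 by 0.46, neither of which reached 1.7-fold, whereas SSA4 fell by 1.7.

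The 5 largest rises from 15 to 45 min were those of RNR1, HO, TOS6, POL30 and ARG3. RNR1, the large subunit of ribonucleotide reductase, went from -2.69 and -2.54 at 15 min to 0.48 and 0.49, a difference of 3.09 (SE 0.12, adjusted p = 1.13e-11). POL30, the sliding clamp of DNA replication, went from -2.06 and -1.90 to 0.28 and 0.19. HO, the mating type endonuclease gene, expressed in late G1, rose by 2.58 to 0.05 on each array, and TOS6, a cell wall protein gene, by 2.23. These 4 genes were at or above the level of the reference on both arrays, and none passed the threshold against it. Without a curve for intensity POL30 stood at -0.01. With a curve over the whole array RNR1 stood at 0.84 and was called higher than the reference. Of 45 late G1 genes 25 were higher than at 15 min and 0 lower, with a median difference of 0.88. Against the reference 2 were higher, a share near that of all genes. They were ASF1, a histone chaperone, at 1.03 on each array and PCL2, a G1 cyclin, at 0.91 and 0.81. With a curve over the whole array PCL2 stood at 0.74 and lost its call. CLN2, the G1 cyclin, rose by 1.43 to 0.17, whereas CLN1, CLN3 and SIC1, the inhibitor of the S phase kinase, had means of 0.00, 0.00 and -0.02, with signs that turned under other settings. SIC1 stood at 0.31 with external control spots. In bulk RNA fewer cells in a phase of the cell cycle and less of a transcript in each cell cannot be told apart.

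Genes for making ribosomes rose as well. Of 101 ribosome biogenesis genes 51 were higher than at 15 min and 0 lower, with a median difference of 0.78, and among 19 genes for RNA polymerase I or III 10 were higher and 0 lower. Scaled on external control spots, 77 of the biogenesis genes were higher. UTP20, of the small subunit processome, stood at -0.56 and -0.52 at 45 min, after a mean of -2.52 at 15 min. Against the reference the biogenesis genes had a median of -0.27 at 45 min, and 2 remained past the threshold, RRP12 at -0.79 and CBF5, the pseudouridine synthase, at -0.77, which is near the share of all genes. Both lie near the limit of 1.7-fold, and both lost the call with a curve over the whole array, with external control spots and without array b. The number of biogenesis genes lower than the reference was 5 with external control spots, 9 without a curve for intensity and 7 without array a. KAP123, a nuclear import receptor of ribosomal proteins, rose by 1.93 from 15 min and still stood at -0.74 and -0.82. It was the 1 of 18 nuclear transport receptors lower than the reference. With a curve over the whole array it stood at -0.66 and with external control spots at -0.73, and lost its call.

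**Figure D2:**
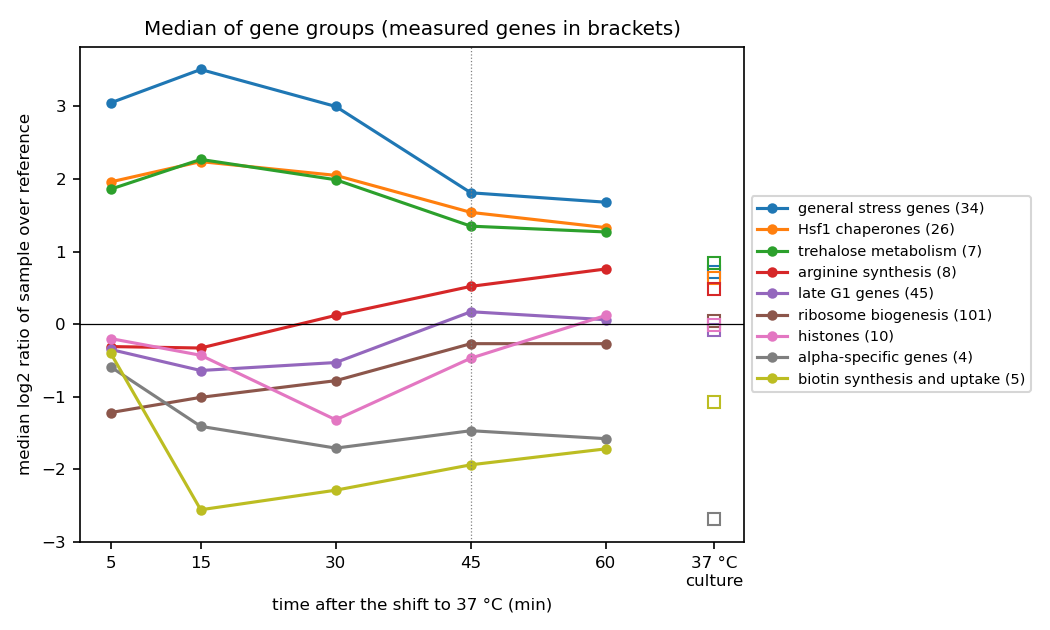
Median log2 ratio over the common reference (y axis) of 9 gene groups at each time after the shift (x axis, min), with open squares for the 37 °C culture and a dotted line at 45 min. The general stress genes were at a median of 3.51 at 15 min and 1.81 at 45 min, and the late G1 genes at -0.64 and 0.17. The groups were chosen with earlier results of these data known.

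A few genes rose late. ARG3 and CPA1 went from means of -0.39 and -0.40 at 15 min to 1.74 and 1.37. GSC2 went from -0.15 and -0.21 on the arrays at 15 min to 1.54 and 1.49, a difference of 1.69 (SE 0.05, adjusted p = 1.02e-12). Among the 316 genes called at 45 min, 20 had their highest value of the 5 heat shock times at 45 min and 54 their lowest. The same count was not made over all genes, so that these numbers are not read as a trait of 45 min. YRF1-5, a helicase gene of a subtelomeric repeat, lay 0.497 above its next highest time, ASF1 0.433 and YFL066C, also a helicase-like gene of a subtelomeric repeat, 0.225. HPF1, a wall mannoprotein, lay 0.407 below its next lowest time, with -0.86 and -0.78 on the arrays, and PHM8, a nucleotidase, 0.344 below, at 1.49 and 1.47, so that it dipped while still above the reference. The differences of these genes between times are descriptions, as they were chosen for them, and the repeat copies of YRF1-5 share sequence. Against the reference YRF1-5 stood at 0.40 with external control spots and 0.24 without a curve for intensity, and lost its call. YFL066C stood at 0.76 with the deposited ratios, where it lost its call, and at 0.66 without array b of 45 min. HPF1 stood at -0.68 with external control spots and lost its call.

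**Figure D3:**
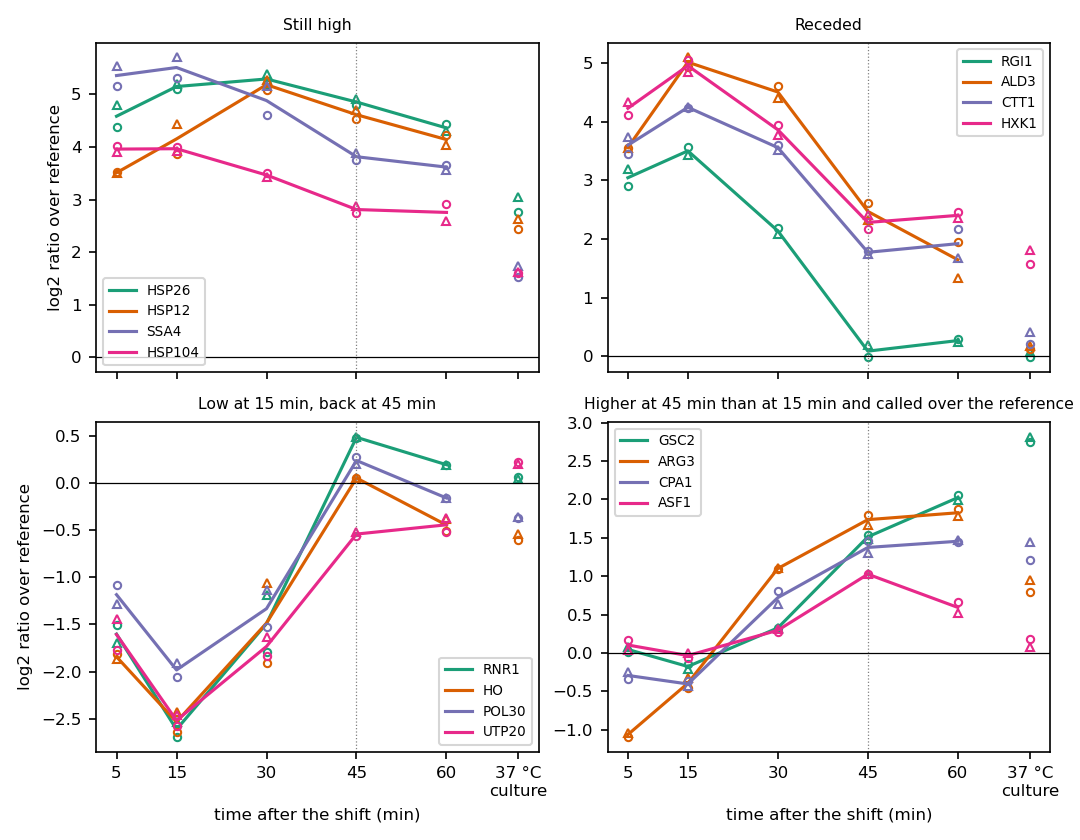
Log2 ratio over the common reference (y axis) of 16 genes against time after the shift (x axis, min), with lines for the mean of 2 arrays, circles for array a and triangles for array b, and the 37 °C culture at the right. RGI1 returned to -0.01 and 0.18 at 45 min, RNR1 reached 0.48 and 0.49, and GSC2 1.54 and 1.49.

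Against 30 min, 99 genes were higher at 45 min, or 1.86%, and 102 were lower, or 1.92%. With external control spots the counts were 179 and 53, and without a curve for intensity 63 and 105. RNR1, TOS6, KAP123, POL30 and HO rose most, by 1.97, 1.85, 1.63, 1.57 and 1.54. RGI1, ALD3 and CTT1 fell most, by 2.05, 2.04 and 1.79, followed by TKL2, a transketolase, and RTN2, a reticulon of the endoplasmic reticulum, by 1.72 and 1.69. Of the late G1 genes 17 of 45 were higher than at 30 min, or 30 with external control spots, and of the general stress genes 28 of 34 were lower. Of 10 histone genes 5 were higher, or 2 without array b of 45 min, with a median difference of 0.73, and all 10 had a mean at 45 min between those of 30 and 60 min. HTA1, coding for histone H2A, stood at -1.0 on array a and -0.46 on array b at 45 min, after a mean of -1.63 at 30 min and before one of -0.11 at 60 min. Copies of one histone gene are near-identical, so that their probes may read each other. HHT1, coding for histone H3, at -1.10 and -0.82, was the 1 histone gene called lower than the reference, with 3 called without array b, 5 with external control spots and 8 without a curve for intensity.

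Few genes separated 45 from 60 min. There were 4 genes that were higher at 45 min than at 60 min, or 0.0753%, and 1 was lower, or 0.0188%, although 357 genes had an adjusted p below 0.05 at any size of change. MF(ALPHA)1, the main gene of the alpha pheromone, stood at -0.42 and -0.22 at 45 min and at -1.30 and -1.33 at 60 min. ALD3 stood at 2.62 and 2.32 against 1.95 and 1.34. SHM2, the cytosolic serine hydroxymethyltransferase that feeds one-carbon units into purines, stood at 1.18 and 0.97 against 0.23 and 0.28, and ADE17, which acts in the last steps of purine synthesis, at 1.04 and 0.90 against 0.13 and 0.17. For these 4 genes both arrays of 45 min lay above both of 60 min, which adds no support, as the genes were chosen by this comparison. HHF1, coding for histone H4, stood at -1.01 and -0.46 at 45 min and 0.06 and 0.13 at 60 min, a difference of -0.83 (SE 0.09, adjusted p = 0.000102). The median difference of the 10 histone genes from 60 min was -0.62, and all 10 had an adjusted p below 0.05, though HHF1 alone passed 1.7-fold. With external control spots 0 genes passed in either direction. With a curve over the whole array MF(ALPHA)1 and SHM2 differed by 0.48 and 0.71 and were not called. Without a curve for intensity SHM2, MF(ALPHA)1 and HHF1 differed by 0.65, 0.40 and -0.68 and were not called. On leaving out array a of 45 min, ALD3, SHM2 and ADE17 differed by 0.70, 0.74 and 0.74. Without array a of 45 min 1 gene was higher and 0 lower, and without array b of 45 min 4 were higher and 10 lower, 5 of them histone genes.

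**Figure D4:**
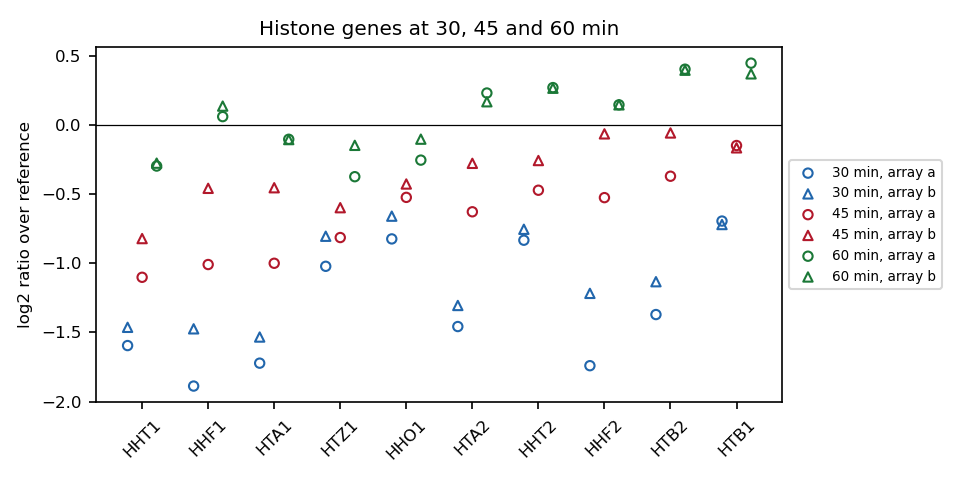
Log2 ratio over the common reference (y axis) of 10 histone genes at 30, 45 and 60 min, circles for array a and triangles for array b. HTA1 stood at -1.0 and -0.46 at 45 min, between the values of 30 and 60 min, and array b lay above array a in 9 of 10 genes at 45 min.

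Cells at 45 min also differed from the 37 °C culture. As that culture belongs to the cold shock course, growth history and course cannot be told apart in any comparison with it. There 108 genes were higher at 45 min, or 2.03%, and 45 were lower, or 0.847%. With external control spots these counts were 178 and 17, and without a curve for intensity 90 and 60. RTC3 stood at 2.89 and 2.91 against 0.37 and 0.60 in the culture, a difference of 2.41 (SE 0.12, adjusted p = 8.31e-10). ALD3 was higher by 2.32, SSA4 by 2.19 and HSP12 by 2.08. HSP31, which removes methylglyoxal and acts as a chaperone, was at 2.18 and 1.92, against -0.09 and -0.12. Of the Hsf1 chaperones 13 of 26 and of the general stress genes 18 of 34 were higher than in the culture, and 0 of either group were lower, with median differences of 0.75 and 0.78. Without a curve for intensity 7 chaperones were higher. For trehalose metabolism no gene of 7 passed, with a median difference of 0.53, and for glycogen none of 10, with -0.05. With external control spots 3 trehalose genes were higher, and without array a of 45 min 1 was.

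SAM1 and SAM2 were lower at 45 min than in the culture by 1.69 and 1.53 on the log2 scale. SAM1 stood at -2.44 and -2.60 against -0.68 and -0.98. INO1, inositol-phosphate synthase, stood at -0.64 and -0.69 against 0.86 and 0.78, and BIO3 was lower by 1.44. The signal of INO1 reached only 161 on the 45 min arrays, so that its ratio is less certain. Of 5 biotin genes 4 were lower than in the culture. GSC2 stood at 1.54 and 1.49 against 2.74 and 2.81, so that it was the 1 gene of the cell wall integrity group lower than in the culture. The 2 others that were higher, SLT2 and PRM5, numbered 0 without a curve for intensity and 1 with a curve over the whole array, with the deposited ratios, without array a of 45 min or without array b of the culture. All 4 alpha-specific genes were higher at 45 min than in the culture, with a median difference of 1.22: the culture had a median of -2.69 and the sample of 45 min -1.47. FAS1 and FAS2, the subunits of fatty acid synthase, were lower than in the culture by 0.84 and 0.99, and stood at -1.02 and -0.97 against the reference. Against the reference FAS1 came to -0.72 with a curve over the whole array and FAS2 to -0.73 with the deposited ratios, where each lost its call.

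**Figure D5:**
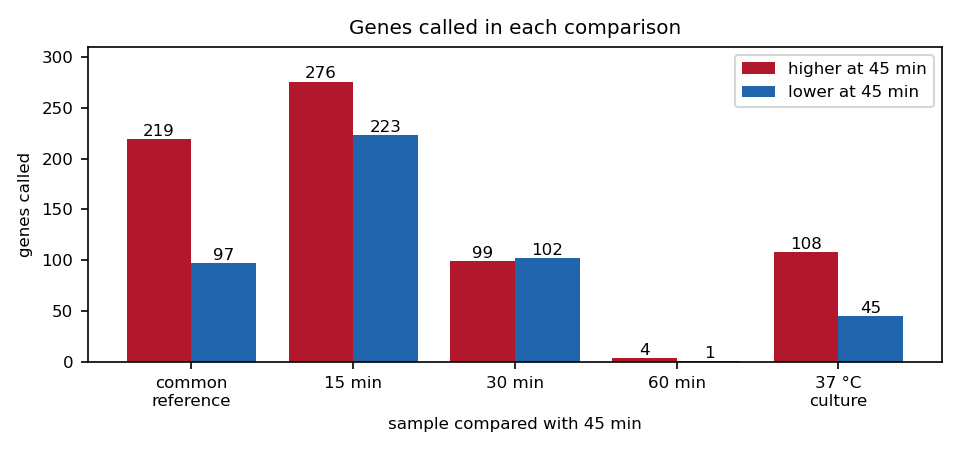
Number of genes called (y axis) in each comparison of 45 min with the sample on the x axis, in red those higher and in blue those lower at 45 min. The counts with 60 min were 4 and 1, against 276 and 223 with 15 min.

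At 45 min transcripts of the main regulators were under the threshold. HSF1 had log2 ratios of 0.44 and 0.32, MSN2 of 0.14 and 0.11 and MSN4 of 0.15 and 0.18, and none of the 3 reached 1.7-fold. MSN4 had stood at 1.27 and 1.19 at 5 min. Of 23 stress regulators 2 were higher, USV1 at 1.10 and XBP1, a repressor of cell cycle genes, at 0.84, and of 15 genes of the protein kinase A pathway 0 passed, with a median of 0.32. In G2/M, HST3, a histone deacetylase, at -0.81 and SWI5, the factor of early G1 genes, at -0.77 were the 2 of 21 genes that were lower. Both lie at the limit of 1.7-fold, and the count was 0 with external control spots, 1 with normexp background correction, 1 without a curve for intensity and 4 with the deposited ratios. Of the 219 genes higher and 97 lower at 45 min, 97 and 62 belong to any of the groups, as do 1041 of all 5315 genes.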

How the data were processed

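RNA was profiled on 22 two-colour spotted arrays of 11 conditions, 2 arrays each, with 15552 spots an array. The authors deposited scanner intensity values per spot and channel and, for each array, log2 ratios that they had normalised. The submitters' processing notes name limma 2.12.0, and a table of the authors' own comparisons, with fold changes and p-values, was not used. The deposited log2 ratios of 3 arrays ran opposite to the dyes given in the labels and were turned. Here intensities without background subtraction were normalised in R 4.3.3 with limma 3.58.1 by a loess curve (span 0.4) within each of 48 print blocks, fitted without spots above 32768. Spots of a probe were averaged. The linear model had one term for each condition and one for the dye, and the Benjamini-Hochberg adjustment ran over the 5326 probes that carry a gene symbol. Called genes had an adjusted p below 0.05 and over 1.7-fold change. Of 5315 genes, 11 had several probes and were read from the brightest. Through the gene table of R64, 54 symbols were updated and 5313 were found.

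The script was tested on simulated data for 45 min against the reference over 5326 probes, where all 67 2-fold changes were called with 0 false calls. The simulated noise had the spread of the fitted model and held no error of normalisation, so that this result says nothing on such errors. The letters a and b mark the dye orientation, which is the block of the model. As the 2 arrays of a condition may also be independent cultures, dye and culture cannot be told apart within a condition. Arrays of the same dye orientation correlated down to -0.407 across the series, and the direction given by the labels was kept. No count depth exists for arrays, and their number limits the precision.

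The genes named are the 10 largest rises and falls, the 5 and 5 largest of each other comparison, the 2 and 2 largest called of each of 44 gene lists, the 5 and 5 most extreme at 45 min and a fixed set. Further genes named beside them, such as SSE2, HSP60, STI1, HSC82, HSP82, YDJ1, SSA3, APJ1, CNS1, SLT2, PRM5, RPS14B, MUP1 and MET6, were chosen after their values were seen. The members and lists were chosen with earlier results of these data known. Alternatives were another curve or none, normexp, external control spots, the deposited ratios, other thresholds, a filter on dim probes, the heat shock arrays alone, no dye term and leaving out each array.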

Additional observations from a re-analysis of the deposited data

Results flagged for a closer look

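Of 1062 gene probes without a symbol, which none of the comparisons used, 84 were called at 45 min against the common reference, 74 higher and 10 lower, by the same model and thresholds. They are named here because they lie outside the genes described. With 2 arrays per condition no array could be tested as standing apart from its group.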

How the results depend on the processing

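With external control spots in place of gene spots, the genes higher and lower than the reference came to 342 and 205, than 15 min to 539 and 108, than 30 min to 179 and 53, than 60 min to 0 and 0 and than the 37 °C culture to 178 and 17. Without a curve for intensity 268 genes were lower than the reference, 63 higher than at 30 min, and 2 higher and 0 lower than at 60 min. With a curve over the whole array 2 were higher and 2 lower than at 60 min. At 2-fold the counts were 145 and 50, 143 and 126, 41 and 53, 0 and 0, and 60 and 14 in the same order. Leaving out each array gave 222 to 226 higher and 101 to 118 lower than the reference, 267 to 286 and 215 to 239 than 15 min, 76 to 125 and 86 to 123 than 30 min, 1 to 5 and 0 to 10 than 60 min, and 97 to 112 and 38 to 51 than the culture. Stricter thresholds call fewer genes by construction, and for the others the cause was not tested. Fits without the dye term, the replicate block, gave 219 and 97, 276 and 223, 99 and 102, 4 and 1, and 108 and 42. The block changed no call of a named gene. Each condition has an array of each dye, so that leaving out the term cannot change a log2 ratio and says little on robustness. Signs turned for RPL35A (0.10 with a curve over the whole array), CLN1 (-0.02 with that curve, and -0.01 to 0.02 on leaving out an array), CLN3 (-0.01 to 0.02 on leaving out an array), SIC1 (0.00 with that curve, 0.31 with external control spots and 0.12 without a curve) and POL30 (-0.01 without a curve). Of 135 values of named genes 29 lost their call under at least 1 alternative and 100 did not change. Alternatives for groups and for named genes between times were chosen after seeing the data. With 2 arrays per condition the spread is pooled over 11 conditions, and the brightest external control lies at a log2 intensity of 10.8, below the ribosomal protein genes at 13.7.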

Other observations

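Some genes outside the groups, chosen after their values were seen, are given as values. Of 11 genes of one-carbon metabolism 5 were higher than the reference at 45 min. Beside SHM2 and ADE17 these were GCV1 and GCV2, subunits of the glycine cleavage complex, at 1.27 and 1.24 and at 0.77 and 0.77 on arrays a and b, and MTD1, a methylenetetrahydrofolate dehydrogenase, at 0.98 and 0.96. Of 8 genes of NAD synthesis 3 were higher, namely BNA1 at 1.02 and 0.97, BNA2, the first enzyme of synthesis from tryptophan, at 1.71 and 1.61, and the nicotinamidase PNC1 at 2.09 and 1.92.

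The COS genes are a subtelomeric family of membrane proteins with closely related sequences, so that a probe may read several copies. None of 10 was called against the reference, and 5 were higher at 45 min than in the 37 °C culture. COS8 had a mean of 0.20 at 45 min and -1.39 in the culture, and COS7 had 0.08 and -1.43.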
